A study of Drosophila melanogaster with 2 samples.

Results

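Among the places bound by the transcription factor DREF in Drosophila melanogaster embryos, 238 peaks lay at internal alternative gene starts. They were taken from the 5292 peaks of the conservative list on the 6 main chromosome arms (X, 2L, 2R, 3L, 3R and 4), of which they make up 4.50%. A peak was included when its summit, the position of its highest point, lay within 250 bp of a transcript start of a protein-coding gene. That start had to be more than 500 bp downstream of the most upstream start of the same gene, and no other gene could have a start within 250 bp of the summit. The rule used positions and no signal values. The 238 peaks belonged to 225 genes, 13 of which had 2 such peaks, and formed 6.52% of the 3649 peaks with a summit at any gene start.

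DREF binds DNA through a zinc finger. Its target is an 8-base palindrome, TATCGATA, named the DNA replication-related element (DRE), and it is known for activating genes of DNA replication and cell growth. Many fly genes have several promoters, and a start inside the gene gives a transcript with a different first exon or leader, and the protein may be the same or differ at its N-terminus. The insulator protein BEAF-32 binds CGATA, which is contained in the DRE, so both proteins can recognise the same bases.

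Binding was measured by chromatin immunoprecipitation and sequencing (ChIP-seq) of whole embryos aged 0 to 24 h. The flies were transgenic for DREF joined to eGFP, and chromatin sonicated to 200 to 800 bp was precipitated with an antibody against GFP. The series has 1 group of 2 biological replicates, and embryo sex was not collected. Each sample pools whole animals of all embryonic stages, so binding in few cells and weak binding in many cells cannot be told apart. The tagged protein is the one measured, and the labels do not say what drives it or whether untagged DREF was present.

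The values are the authors' peak signals, which rank peaks within a list and are not stated to be scaled for depth. Peaks were kept by the irreproducible discovery rate (IDR), which scores how well the rank of a peak repeats between peak sets. Each peak also has a q-value, and a peak is called strong here when its q-value is at most 0.05. Read depth is unknown. All intervals are 95% Wilson intervals, which cover the sampling of peaks or genes only. With 1 group there is no contrast between conditions, so differences between sets of peaks are given side by side with no test.

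The sequences below show bound internal starts with an exact DRE, with near matches and with neither, beside most upstream starts that were not bound. A DRE with at most 1 mismatch was present in 98 members and absent from 140. Each runs from 120 bases upstream to 30 bases downstream of a start, 5′ to 3′ on the strand of the gene, from the Release 6 genome assembly (dm6). Capitals mark every DRE, every copy of its inner palindrome ATCGAT and every CGATA in either direction. The first 5 hold an exact DRE at the bound internal start. They are the strongest such members on arms X, 2L, 3L, 3R and 4 whose DRE lies in the bases shown. They are the internal starts of aux at chr3R:4220866-4221016 (plus strand), CG17078 at chr2L:277182-277332 (minus strand), Sur-8 at chr3R:17401424-17401574 (minus strand), su(w[a]) at chrX:1033196-1033346 (plus strand) and pit at chr3R:22035597-22035747 (plus strand).
aux internal: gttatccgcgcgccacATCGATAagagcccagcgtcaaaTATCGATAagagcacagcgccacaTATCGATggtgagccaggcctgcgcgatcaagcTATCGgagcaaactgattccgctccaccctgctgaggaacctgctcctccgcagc
CG17078 internal: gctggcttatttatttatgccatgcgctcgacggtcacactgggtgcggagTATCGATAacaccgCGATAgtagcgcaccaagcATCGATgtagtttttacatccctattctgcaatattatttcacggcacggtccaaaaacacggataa
Sur-8 internal: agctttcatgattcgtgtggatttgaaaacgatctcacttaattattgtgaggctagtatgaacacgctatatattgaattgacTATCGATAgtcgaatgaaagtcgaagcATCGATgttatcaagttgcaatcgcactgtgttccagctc
su(w[a]) internal: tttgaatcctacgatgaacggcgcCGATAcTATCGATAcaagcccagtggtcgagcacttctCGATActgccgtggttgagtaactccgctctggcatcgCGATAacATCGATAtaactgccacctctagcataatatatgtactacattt
pit internal: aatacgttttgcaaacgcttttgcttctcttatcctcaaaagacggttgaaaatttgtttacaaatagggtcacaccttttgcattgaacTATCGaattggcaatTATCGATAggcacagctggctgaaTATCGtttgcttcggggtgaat

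The next 3 are strongly bound internal starts without an exact DRE but with near matches, shown for the 66 members of this kind. They are heph at chr3R:31985738-31985888 (minus strand), MEP-1 at chr3L:2635642-2635792 (plus strand) and Utx at chr2L:10277521-10277671 (minus strand). Each holds 2 copies of the DRE with 1 mismatch and at least 2 of the inner palindrome.
heph internal: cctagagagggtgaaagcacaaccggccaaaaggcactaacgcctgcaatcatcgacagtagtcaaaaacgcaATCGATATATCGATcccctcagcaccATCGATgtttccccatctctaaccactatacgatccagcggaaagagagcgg
MEP-1 internal: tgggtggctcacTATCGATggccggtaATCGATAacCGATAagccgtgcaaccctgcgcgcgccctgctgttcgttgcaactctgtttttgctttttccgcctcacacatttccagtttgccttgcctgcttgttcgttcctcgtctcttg
Utx internal: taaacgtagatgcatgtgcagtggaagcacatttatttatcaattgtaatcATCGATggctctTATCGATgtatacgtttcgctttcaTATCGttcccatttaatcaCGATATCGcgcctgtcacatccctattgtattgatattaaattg

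The next pair had no DRE within 1 mismatch near the summit, as in the largest group of members. They are CG9853 at chr3R:4399979-4400129 (minus strand), with a signal of 1435, and CG11779 at chr3R:19156782-19156932 (minus strand), with a signal of 1399. These are the strongest such members on the same arms with a summit within 100 bp of the start, chosen after their values were seen.
CG9853 internal: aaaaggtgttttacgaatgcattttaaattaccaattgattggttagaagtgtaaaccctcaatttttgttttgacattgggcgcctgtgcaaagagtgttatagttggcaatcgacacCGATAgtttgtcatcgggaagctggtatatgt
CG11779 internal: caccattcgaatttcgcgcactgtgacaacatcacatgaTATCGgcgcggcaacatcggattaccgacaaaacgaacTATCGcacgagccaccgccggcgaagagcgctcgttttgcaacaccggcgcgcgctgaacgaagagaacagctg

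The last 3 are the most upstream starts of aux at chr3R:4211663-4211813 (plus strand), su(w[a]) at chrX:1012659-1012809 (plus strand) and heph at chr3R:32015490-32015640 (minus strand). None of these had a DREF summit within 250 bp, and none holds an exact DRE or ATCGAT. The aux sequence holds 1 match to the DRE with 1 mismatch, which contains a CGATA, and the other two hold none.
aux most upstream: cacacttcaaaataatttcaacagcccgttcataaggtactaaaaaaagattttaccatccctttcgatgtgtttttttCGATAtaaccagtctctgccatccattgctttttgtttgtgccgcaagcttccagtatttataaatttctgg
su(w[a]) most upstream: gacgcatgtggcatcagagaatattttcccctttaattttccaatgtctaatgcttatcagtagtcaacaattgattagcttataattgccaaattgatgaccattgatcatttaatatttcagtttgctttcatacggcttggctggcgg
heph most upstream: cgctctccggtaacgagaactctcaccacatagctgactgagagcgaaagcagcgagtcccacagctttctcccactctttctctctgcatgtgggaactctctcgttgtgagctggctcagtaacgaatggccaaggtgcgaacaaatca

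The strongest internal peak lay at auxilin (aux), whose product helps to strip clathrin from coated vesicles. Its signal was 5921 in the conservative list. Replicate 1 alone gave 2246 and replicate 2 alone 3697. The bound start lay 9203 bp downstream of the most upstream start, in intron 4, and the summit was 43 bp upstream of it. Of the 4 annotated transcripts of aux, 3 began there. The most upstream start of aux had no summit even in the ranked list made from both replicates.

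The next internal peaks by signal were at zip, Orai and heph. The zip gene encodes the heavy chain of non-muscle myosin, and its peak had a signal of 5410, with 2035 and 3390 in replicates 1 and 2. Orai encodes the pore of the store-operated calcium channel, and its peak, 7420 bp into the gene, had a signal of 4543, with 1672 and 2895 in the replicates. The heph gene encodes a polypyrimidine tract binding protein that regulates splicing, and its peak had a signal of 4211, with 1548 and 2677. In heph the bound start lay 29752 bp downstream of the most upstream start and was used by 14 of 25 annotated transcripts. All of these peaks were higher in replicate 2 than in replicate 1, as were all of the 20 strongest internal peaks, with ratios from 1.52 to 1.83.

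The rest of the 20 strongest, with signals down to 2444, spanned many functions. Among them, mip120 (3758), a subunit of the Myb-MuvB complex that controls cell cycle genes, and CrebB (3006), a transcription factor that responds to cyclic AMP, had no called summit at their most upstream starts. Neither did kug (3543), an atypical cadherin, nor stmA (3229), which helps to place a phosphoinositide kinase at the membrane. Utx (3303), a histone demethylase, and MEP-1 (3320), a zinc finger protein of chromatin complexes, were bound at both starts. Bound at both starts as well was pit (2452), a DEAD-box helicase of cell growth. The most upstream starts of Ogdh (2539), an enzyme of the citric acid cycle, and su(w[a]) (2566), a splicing regulator, were not bound. The others of the 20 were CG4622, CG17078, Sur-8, Hrb98DE, mia, CG7741 and CG12702. Of the 20, 14 had no called summit at the most upstream start (139 of all 238 members). The bound start lay in an intron in 15 (182 of 238) and within 100 bp of the summit in 19 (160 of 238). An exact DRE was held by 7 (32 of 238), and a DRE with at most 1 mismatch by 19 (98 of 238).

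**Figure D1:**
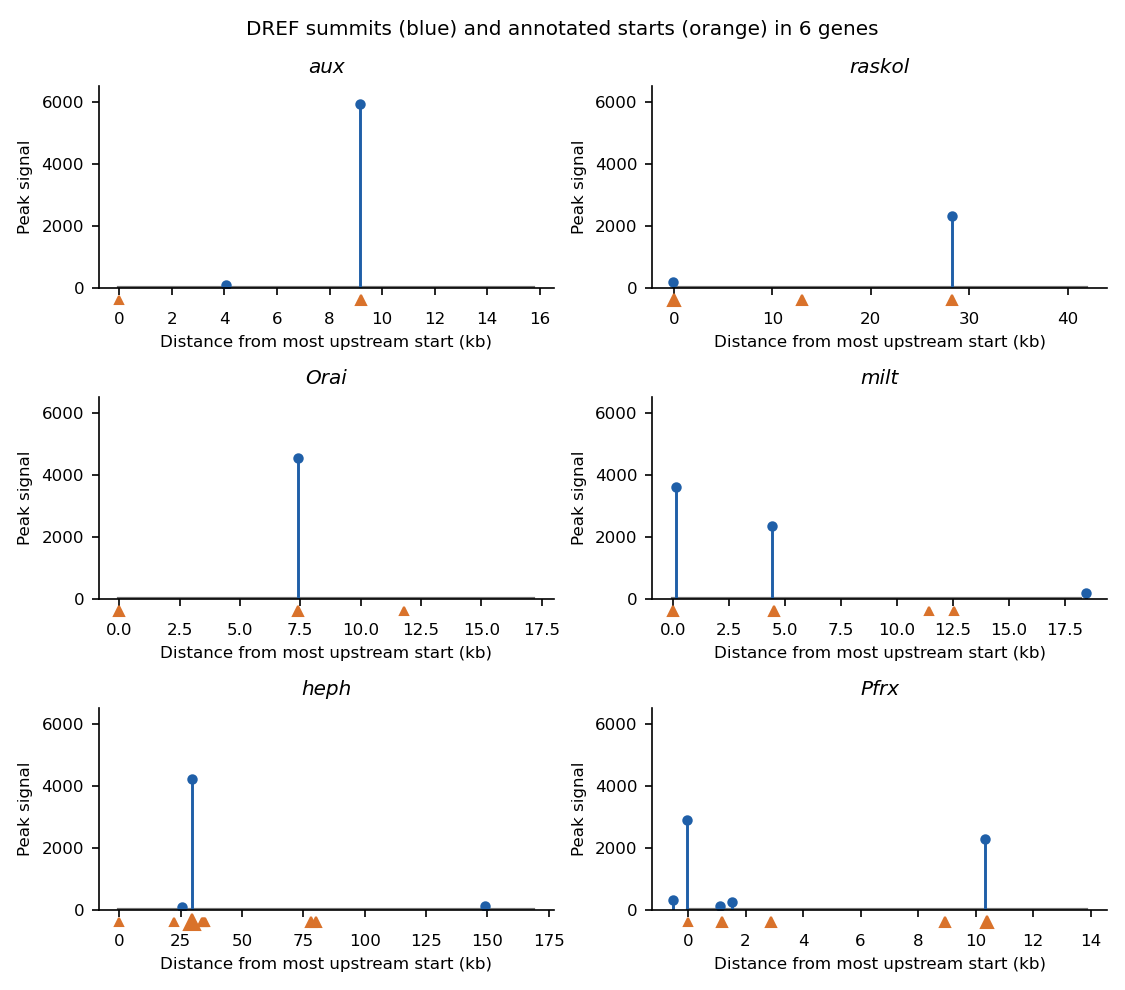
Peak signal (vertical lines with dots) and annotated transcript starts (triangles, larger where more transcripts begin) along 6 genes, by distance in kb from the most upstream start. The strongest peak stands at an internal start in aux (5921), Orai (4543), heph (4211) and raskol (2315), while milt and Pfrx have a strong peak at the most upstream start and another at an internal start. The gene milt was chosen after its values were seen.

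Over all members, signals ran from 5.40 to 5921, with a median of 228 and quartiles of 112 and 946. The 2331 peaks at the most upstream start of 1 protein-coding gene had a median of 871, which is 3.82 times as high, and all 5292 peaks had a median of 302. Strong peaks made up 78.2% of the members (186 of 238, interval 72.5 to 82.9), 90.1% of the peaks at most upstream starts (88.8 to 91.2) and 70.6% of all peaks (69.4 to 71.8). Among strong peaks alone the medians were 400 and 1040, a ratio of 2.60. Of the 500 strongest peaks, 14 were members and 330 were at most upstream starts, where all 5292 peaks held 238 and 2331 of these.

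The replicates gave like orders for strong members. The median signal of members was 105 in replicate 1 (236 found) and 148 in replicate 2 (237 found), and 182 of the 235 found in both were higher in replicate 2. The Spearman correlation between replicates was 0.940 over these 235 members, 0.958 over 184 strong ones and -0.04 over 51 weak ones, which span a narrow range. The points are peaks of the same pair of libraries and were selected for ranking alike, so this is a description. A thresholded peak was present in both replicates' own lists for 154 members (64.7%) and in neither for 49 (20.6%), against 82.5% and 7.98% of peaks at most upstream starts and 62.9% and 26.2% of all peaks. Of the 52 weak members, 40 were in neither list.

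**Figure D2:**
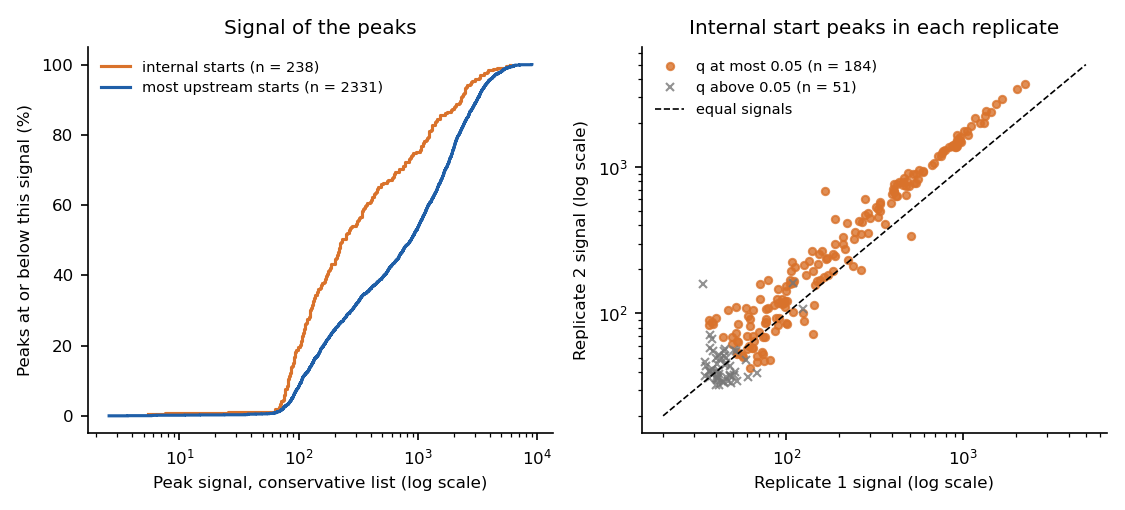
Left, the share of peaks at or below each signal (log scale) for internal starts and most upstream starts, whose medians are 228 and 871. Right, each internal start peak by its signal in replicates 1 and 2 (log scales), with strong peaks above the line of equal signals in most cases and weak peaks in a cloud at low signal.

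A summit lay at fewer internal starts than most upstream starts. Of 3414 internal starts with no other gene nearby, 255 (7.47%, interval 6.63 to 8.40) had a summit within 250 bp, against 2573 of 11214 most upstream starts (22.9%, 22.2 to 23.7). Within genes that have an internal start, 414 of 1673 most upstream starts with no other gene nearby were bound (24.7%). The share of bound internal starts was 13.0% (interval 10.5 to 16) at 500 to 1000 bp downstream, 10.1% at 1000 to 2000 bp, 7.38% at 2000 to 5000 bp, 4.35% at 5000 to 20000 bp and 3.59% (2.34 to 5.48) beyond. The signal itself did not follow distance, with a Spearman correlation of -0.02 over the 238 members. Members lay 502 to 124658 bp downstream, with a median of 1746 bp and quartiles of 888 and 4725 bp. The share of bound internal starts was between 6.69% and 8.30% on every arm.

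The members farthest downstream were in very long genes. The start of Ptp61F, a tyrosine phosphatase, lay 124658 bp downstream and its peak had a signal of 2253, with 874 in replicate 1 and 1388 in replicate 2. CG1677 lay 120920 bp downstream with a signal of 443, and Svil, an actin-binding protein of the villin family, 116883 bp downstream with a weak peak of 68.6. Strong and weak peaks thus both occurred at the longest distances.

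Summits lay mostly just upstream of the start. In 86.1% of members the summit was upstream, with a median position of 53.5 bp upstream, against 32 bp for peaks at most upstream starts. The summit was within 100 bp in 160 members (67.2%), compared with 85.6% at most upstream starts. The 71 members with a summit over 100 bp upstream had a median signal of 158, the 160 within 100 bp a median of 369. In the 7 with a summit over 100 bp downstream the signals reached 246.7.

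**Figure D3:**
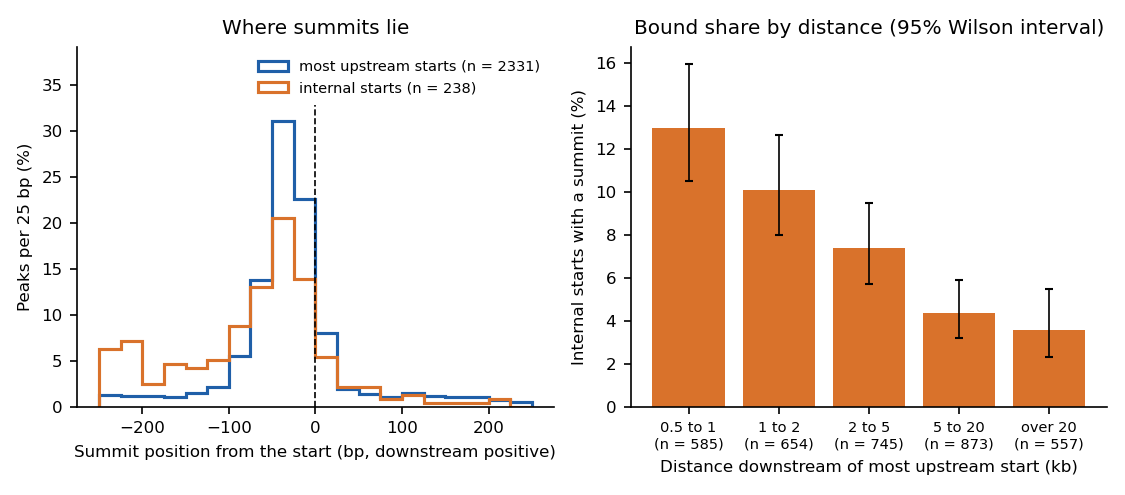
Left, summit positions relative to the start in bins of 25 bp, as a share of peaks, for internal starts (n = 238) and most upstream starts (n = 2331); both have their highest bin just upstream of the start, and internal starts have a second, lower rise beyond 200 bp upstream. Right, the share of internal starts with a summit by distance from the most upstream start, falling from 13.0% to 3.59%, with 95% Wilson intervals as bars.

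At the edges of the rule, Eno (249 bp from the start, signal 167) and Ptpmeg (245 bp, 1528) were just inside 250 bp, and Argk1 (256 bp, 94.0) and achi (258 bp, 716) just outside. For the distance from the most upstream start, zip (502 bp, 5410) and CG34178 (507 bp, 73.6) were just inside, and CG9849 (497 bp, 1177) and Su(var)2-10 (496 bp, 188) just outside.

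The bound start lay in an intron of a transcript from further upstream in 182 members (76.5%, interval 70.7 to 81.4), and in 137 of these it was the first intron. It lay in an untranslated exon in 48 members and in a coding exon in 8. Transcripts from the bound start had the same annotated start codons as those from the most upstream start in 138 members (58.0%), shared none in 85 (35.7%) and shared some in 15. The median signals were 252 where the start codons were the same and 214 where none was shared. The shares of introns, exons and start codons are given for members only. Without those of all internal starts, they are not read as traits of bound starts.

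Transcript annotation differed between bound and unbound internal starts. The 255 internal starts with a summit carried a median of 44.4% of their gene's transcripts, against 28.6% for the 3159 without. They carried a majority of the transcripts in 25.1% of cases (interval 20.2 to 30.8), against 9.53% (8.55 to 10.6). The starts with a summit also lay nearer the most upstream start, with a median of 1653 bp against 3688 bp. Their genes had a median of 4 transcripts against 5, and with fewer transcripts each one makes up a larger share. Annotated transcripts are not a measure of expression, which was not part of the series.

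The most upstream start of the same gene was bound too in 99 members (41.6%, interval 35.5 to 47.9) and not bound in 139. Another gene's start lay within 250 bp of the most upstream start in 44 of these 99 and in 30 of the 139. A peak there cannot be assigned to 1 gene, while members were barred from having such a neighbour. The gene counts that follow include such shared starts. At the level of genes, 92 of 224 with a bound internal start (41.1%, 34.8 to 47.6) had a bound most upstream start, against 509 of 1832 with no summit at a usable internal start (27.8%, 25.8 to 29.9). Another 8 genes had a summit at a usable internal start but no member peak and are in neither group. Over all 2064 genes with a usable internal start, 604 had a bound most upstream start (29.3%), whether or not another gene began nearby. Of the 139 members with an unbound most upstream start, 77 had no ranked summit there at all, and 62 had one that is absent from the conservative list. Those 62 had a median signal of 35.9 at the most upstream start, in the ranked list, and 210 at the internal start, in the conservative list. The upstream one was the stronger in 1, and it is not stated whether these lists share a scale. Where the most upstream start was unbound it had a single annotated transcript in 66.9% of members, against 42.4% where it was bound.

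In the 92 genes bound at both starts, the most upstream start usually had the stronger peak. The median signals were 222 at the internal start and 996 at the most upstream start, and the median of the log2 ratio of internal to upstream signal was -1.12, a 2.18-fold higher upstream signal. The median log2 ratio was -1.05 in replicate 1 and -1.19 in replicate 2, over 90 genes each, and 83 of 88 genes had the same direction in both. The internal start had the higher signal in 27 genes (29.3%), 7 of them by more than 4-fold, and the lower signal by more than 4-fold in 38. Another gene's start lay within 250 bp of the most upstream start in some of these genes, and without them the median was -1.47 over 52 genes.

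The genes with the highest ratios were zip, Sur-8, Hrb98DE and raskol. In zip the internal start had a signal of 5410 and the most upstream start 133, with 2035 against 65.1 in replicate 1 and 3390 against 84.9 in replicate 2. A start of uzip lay within 250 bp of that most upstream start, so its peak cannot be assigned to zip alone. Sur-8, a leucine-rich repeat scaffold of Ras and Raf signalling, had 2768 against 106, with 1017 against 62.2 and 1762 against 43.6. Hrb98DE, an RNA-binding protein of the hnRNP A family, had 2720 against 188, with 1073 against 73.3 and 1660 against 118. In raskol, which encodes a Ras GTPase-activating protein, the values were 2315 against 191, and replicate 1 had no matching peak at the most upstream start. In each of these genes the internal signal was at least 12.1 times the upstream signal, in the same direction in every replicate with both values.

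The genes with the lowest ratios were cnn, gro, Ptpmeg2 and Gk2. The centrosome gene cnn had 81.5 at its internal start and 4928 at its most upstream start, with 45.5 against 1914 in replicate 1 and 36.8 against 3030 in replicate 2. A start of Golgin97 lay within 250 bp of that most upstream start, so its peak cannot be assigned to cnn alone. The corepressor gene gro had 118 against 5020, with 52.8 against 1844 and 64.7 against 3205. Ptpmeg2, a tyrosine phosphatase, had 118 against 4840, and Gk2, a glycerol kinase, 85.4 against 3269. The internal peaks of cnn and Gk2 were weak, while those of gro and Ptpmeg2 passed the q-value threshold.

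**Figure D4:**
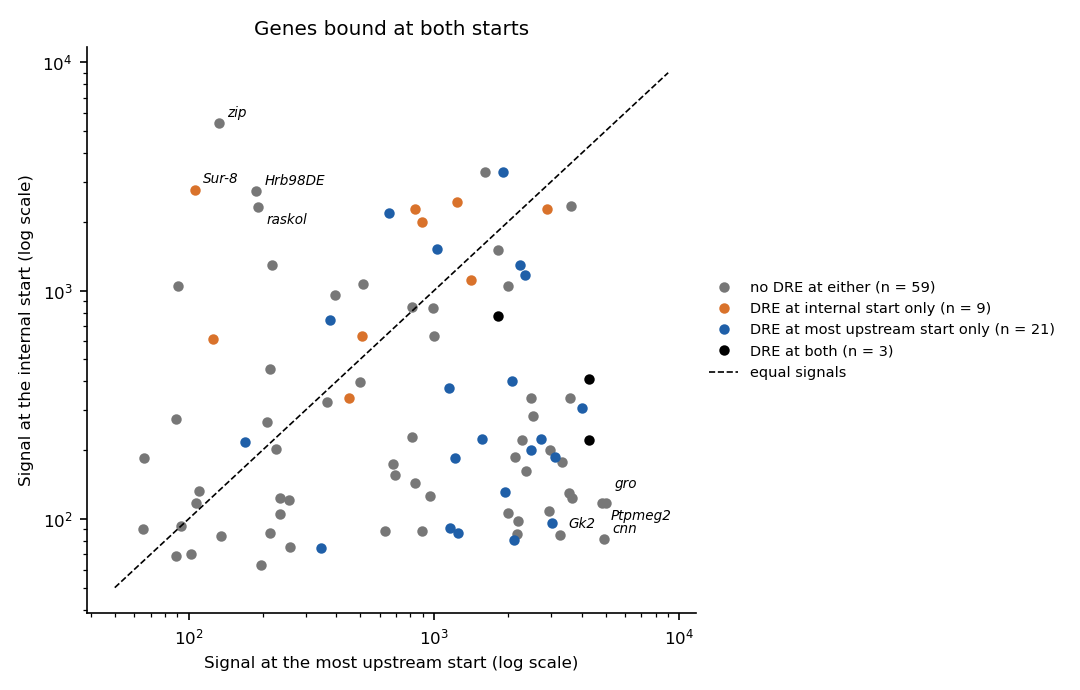
Signal at the internal start against signal at the most upstream start (both log scales) for the 92 genes bound at both, coloured by where an exact DRE lies within 100 bp of the summit, with the strongest internal peak of each gene used. Points above the dashed line of equal signals are the 27 genes with the stronger internal peak, and 6 of the 9 genes with a DRE at the internal start only are among them.

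Where the DRE lay, the balance between the starts differed. With a DRE at the internal start only (9 genes), the median log2 ratio was 0.98 and the internal peak was the stronger in 6. With a DRE at the most upstream start only (21 genes) the median was -2.73 and the internal peak was the stronger in 5. With a DRE at neither (59 genes) the median was -1.09, and 3 genes had one at both. These counts use the strongest member of each gene. In Ptpmeg, counted with a DRE at the most upstream start only, a second, weaker summit at the same internal start (1231) holds an exact DRE.

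Of the members, 32 held an exact DRE no more than 100 bp from the summit (13.4%, interval 9.69 to 18.4). The share was 19.99% (18.9 to 21.1) over all 5292 peaks, 28.3% (26.5 to 30.1) at most upstream start peaks, and 22.2% (18.4 to 26.6) at those of genes with a start over 500 bp downstream. It was 0.420% in windows centred 1000 bp to either side of member summits, 0.412% at internal starts without a summit and 6.43% at all 19607 starts of protein-coding genes. The control palindrome ATACGTAT, with the same base composition, was in none of the member windows. Counting the DRE with 1 mismatch allowed, the shares were 41.2% of members (35.1 to 47.5), 43.9% of all peaks, 58.3% of most upstream start peaks and 7.47% of internal starts without a summit. The inner palindrome ATCGAT was in 36.6% of members, 41.1% of all peaks and 5.54% of internal starts without a summit, and CGATA in 58.4%, 60.8% and 24.8%. Windows were centred on the summit for peaks and on the start where there was no summit. The shares overlap, since each DRE contains ATCGAT and CGATA and also counts as a match with 1 mismatch allowed.

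The same held when starts, not summits, were searched. Of 42 internal starts with an exact DRE within 100 bp, 29 had a summit (69.0%, interval 54.0 to 80.9), against 226 of 3372 without one (6.70%), beside the 7.47% over all internal starts. At most upstream starts the shares were 633 of 738 (85.8%) and 18.5%. Unbound most upstream starts of member genes had a DRE in 1 of 133 cases (0.752%). This is near the share over all most upstream starts without a summit and with no other gene nearby, 105 of 8641 (1.22%).

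The DRE sat close to the summit and upstream of the start. Its centre was a median of 22 bp from the summit, and within 50 bp in 31 of 32 members. It was upstream of the start in 27 of 32, with a median position 51.5 bp upstream. In aux the centre was 77.5 bp upstream of the bound start, in su(w[a]) 86.5 bp, in Sur-8 32.5 bp and in pit 11.5 bp, as in the sequences above. Only 2 members held more than 1 exact DRE.

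Signals differed with the match. Where an exact DRE was present (32 members), the median was 1276, with 522 in replicate 1 and 771 in replicate 2. The 66 with only a match of 1 mismatch had a median of 974, with 408 and 638, and the 140 with neither had 132, with 63.5 and 74.5. Of these groups 31 of 32, 65 of 66 and 90 of 140 peaks were strong. Higher in replicate 2 were all 32, 60 of the 66 and 90 of the 140, a few of which lacked a replicate value. Of the strong peaks at most upstream starts, 1990 of 2099 were higher in replicate 2, so this is not particular to members with a DRE. Some members without a match within 100 bp were still strong, and the highest of them was kug at 3543. The kug window did hold 2 copies of ATCGAT and 3 of CGATA.

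Other promoter elements were searched in the same windows. Motif 7 (CAGCNCTA or CATCNCTA) was in 15.5% of members, 18.5% of most upstream start peaks and 2.31% of internal starts without a summit. The shares for the E-box, letters CAGCTG, were 21.0%, 19.0% and 9.91%. Motif 1, the core promoter element bound by M1BP, was in 1.68%, 6.61% and 0.443%. The TATA box TATAAA was in 19.3%, 24.8% and 20.3%. The initiator, searched as TCAGTT and as TCATTT, and with either ending in C instead, was in 45.4%, 38.6% and 55.1%. The GAGA element GAGAG was in 26.9% of members, 16.1% of most upstream start peaks and 34.4% of internal starts without a summit. Windows centred 1000 bp to either side of member summits held GAGAG in 26.3% and the initiator in 37.4%. For the 71 members with a summit over 100 bp upstream and the 7 over 100 bp downstream, the window did not reach the bound start. Over all protein-coding starts the share was 6.90% for Motif 7, 13.5% for the E-box, 3.27% for Motif 1, 26.8% for the TATA box, 50.3% for the initiator and 24.9% for GAGA. Over all 5292 peaks it was 14.4% for Motif 7, 18.2% for the E-box, 4.37% for Motif 1, 20.6% for the TATA box, 36.4% for the initiator and 19.4% for GAGA. All motifs were searched on both strands.

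**Figure D5:**
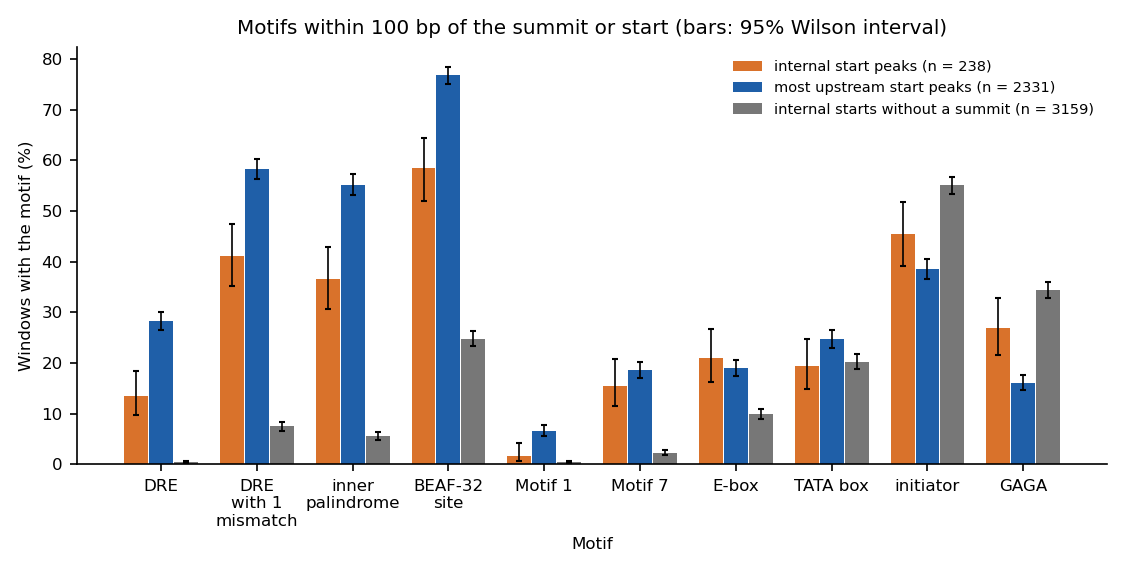
Share of windows with each motif within 100 bp of the summit (internal start peaks and most upstream start peaks) or of the start (internal starts without a summit), with 95% Wilson intervals as bars. The DRE, its near matches, the inner palindrome and the CGATA site of BEAF-32 are more frequent at both kinds of peak than at unbound internal starts. The initiator and GAGA element are less frequent at both, with windows centred on the summit for peaks and on the start for unbound starts. The TATA box is at 19.3% of internal start peaks, 24.8% of most upstream start peaks and 20.3% of unbound internal starts.

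Genes of several functional groups had a bound internal start. Of 2064 genes with a usable internal start, 224 had a member peak (10.9%), and of the 306 such genes in the 12 lists examined, 40 did (13.1%, interval 9.75 to 17.3). The lists range from 4.08% to 21.4%, with intervals that include 10.9% in all 12 cases. The count of members in any 1 list is small, so no list is read as standing apart.

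In the list of energy and lipid metabolism, 6 of 28 genes had a member peak (21.4%). Counts for the other lists are likewise of genes. Pfrx, an enzyme that sets the level of a regulator of glycolysis, had 2 member peaks, of 2272 at 10408 bp and 114.7 at 1170 bp, and its most upstream start had 2895. Pfk, the rate-limiting kinase of glycolysis, had 1215 (477 in replicate 1 and 743 in replicate 2) with no summit at its most upstream start, and Idh, isocitrate dehydrogenase, had 611 against 126. Pgk, Eno and Lpin had 345, 167 and 161.

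RNA-binding and translation genes had 6 of 35 (17.1%). Beside heph and Hrb98DE these included pAbp, the poly(A) binding protein, with peaks of 2086 and 215, and the splicing regulator Rbfox1 with 1318 and a DRE at a start 34591 bp downstream. The peaks of mask and mub had signals of 338 and 76.8. All but the mub peak were strong.

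Kinases and phosphatases had 5 of 29 (17.2%). Raf, the kinase that activates MEK, had 1921 at a start 44832 bp downstream, with 751 in replicate 1 and 1184 in replicate 2. It had no called summit at its most upstream start. The cGMP-dependent kinase gene for had 603, and Lar and Doa had 142 and 131. Ptp61F was described above.

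Chromatin regulators had 3 of 17 (17.6%), Utx (3303 against 1619 upstream), the histone methyltransferase gene Set1 (880, upstream not bound) and ash2 (282 against 2531), which works in the same complex as Set1. The ubiquitin system had 3 of 16 (18.8%), the ubiquitin-conjugating enzyme gene eff (375 against 1154) and the deubiquitinase genes Usp10 (124 against 3642) and scny (88.7 against 634). Axon guidance and adhesion had 3 of 19 (15.8%), dlg1 with 743 and 355, Sema2a with 247 and mew with 74.8.

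Transcription factors had 2 of 49 (4.08%, interval 1.13 to 13.7), CrebB (3006) and Stat92E, the effector of JAK signalling (1513 against 1818 upstream). Receptors and signalling genes had 1 of 21, the EGF-like ligand gene spi (133 against 110). Cytoskeleton and motor genes had 4 of 33 (12.1%), of which zip and chb (562) were strong and sqh (83.1), the myosin regulatory light chain, and shot (82.0) were weak. The list of ion channels and transporters, which does not hold Orai, had 4 of 34 (11.8%). Within it the calcium pump gene SERCA had 1233, with a DRE, followed by sea at 133, Trpm at 92.8 and Hk at 81.3. Membrane trafficking had Clc, the clathrin light chain (775), of 12 genes, and GTPase regulators had raskol and trio (95.5) of 15.

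In 13 genes there were 2 member peaks. In Ptpmeg, a phosphatase with a FERM domain, 2 summits at the same start had signals of 1528 and 1231, and the most upstream start had 1028. In Asator, a tau-tubulin kinase, the signals were 1423 at 7024 bp and 137 at 6274 bp. In P5CDh1 and mei-9 the second peak had signals of 7.64 and 5.40, its interval overlapped that of the first peak of the gene, and it was matched to the same replicate peak as the first in at least 1 replicate. Separately, 8 members, the Ptpmeg pair among them, had exactly the same interval as another summit. Asator, P5CDh1 and mei-9 were chosen after their values were seen.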

How the data were processed

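DREF ChIP-seq of 2 replicates was available as peak lists in dm6 coordinates. Per the file notes and labels, the authors made for each replicate a ranked and a thresholded list by IDR. From both replicates they made a ranked, a thresholded and a conservative list. The deposited score is at least 830 for every peak of the conservative list, the deposited signal is the authors' peak strength, and the deposited −log10 of the q-value gives the strong peaks (q-value at most 0.05). Aligner, caller and versions: not given in the sources used here. The labels name a possible control, whose role is not stated.

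Summits were matched to transcript starts of Ensembl release 115 (BDGP6.54), with 13945 protein-coding genes on the 6 arms. Per replicate, a member was given the signal of the ranked peak that overlaps it and whose summit is closest. Motifs (11) were searched on both strands within 100 bp of the summit, or of the start where there was no summit. All were exact letters except the DRE with 1 mismatch allowed. Python 3.11.15, scipy 1.17.1 and matplotlib 3.10.9 were used. Simulated peaks placed at known starts were used to test the assignment to internal starts, the search for exact DREs and the count of genes. Signals, replicate matching and ratios were not tested in this way.

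The members, the 12 gene lists and the rule for named genes were chosen with earlier results of these data known. Named genes are those at the 20 strongest members, the 8 strongest with an unbound most upstream start, the 5 strongest with a DRE, the 4 highest and 4 lowest ratios, the 3 farthest downstream, the 3 with most members, the 3 strongest of each list, and the 2 nearest each threshold. Other list members, named to complete the counts, were chosen after their values were seen. The alternatives tried were other peak lists, a q-value limit, each replicate alone, other windows, distances and neighbours, and other motif windows.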

Additional observations from a re-analysis of the deposited data

How the results depend on the processing

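All comparisons are within 1 group, so nothing here tests a difference between conditions, and read depth is unknown. With only 1 group, samples could not be paired between conditions, and the only pairs are the internal and most upstream starts of the same gene. The median log2 ratio of internal to upstream signal stayed below 0 under every alternative, and 238 members, 13.4% with a DRE, a median signal of 228, 41.6% with a bound most upstream start, a median log2 ratio of -1.12 and 10.9% of genes are the values to compare with. With the thresholded list of both replicates the median log2 ratio was -1.62. With a q-value of at most 0.05 the median signal was 400, the median log2 ratio -0.94 and the share of genes 8.58%. With every 250 bp window cut to 100 bp, for the most upstream start and other genes as well, the median signal was 375. The share with a most upstream start bound within 100 bp was then 29.5%, and the share of genes 8.0%. Of the 160 members with a summit within 100 bp, 61 had a most upstream start bound within 250 bp. With starts over 1000 bp downstream the median log2 ratio was -0.94 and the share of genes 9.55%. Allowing 1 mismatch raised the share with a DRE to 41.2%. The list of 1 replicate alone gave 178 to 185 members, 17.8% to 18.0% with a DRE and a median signal of 184 to 226. A bound most upstream start was found in 38.8% to 40.0%, the median log2 ratio was -0.93 to -0.81 and the share of genes 8.24% to 8.53%. In the replicates' own ranked lists the 238 members had lower medians, 105 and 148, so 184 and 226 are not on the scale of 228. The cause of these shifts was not tested, beyond the loss of weak peaks that a q-value limit makes by construction.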

Other observations

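Some peaks at internal starts with high signals were absent from the conservative list. In the ranked list made from both replicates, 153 peaks on the 6 arms had a score of at least 830 and were not in the conservative list. Of these, 12 met the same rule at internal starts. The highest were at CG44774, with signals of 2211 at 1956 bp and 1402 at 6911 bp downstream, wdb, a regulatory subunit of protein phosphatase 2A (2021), Bicra (1964) and CycG, a cyclin (1664). CG11791 had 856 and held an exact DRE. The other 6, at Tm1, omd, Ubi-p63E, Pgk and Kdm2, had signals from 78.2 to 209. These genes were chosen after their values were seen, and the reason they are absent was not tested.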
